A study of Homo sapiens with 6 samples.

Results

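The 10 genes described here encode the cyclins, cyclin-dependent kinases (CDKs) and CDK inhibitors that act at the G1 to S transition of the cell cycle: CCND1, CCND2, CCND3, CCNE1, CCNE2, CDK2, CDK4, CDK6, CDKN1A and CDKN1B. They were chosen by symbol, and each was looked up in the lists of bound promoters, typical enhancers and super-enhancers, which exist for N-Myc, for JMJD6 and for both proteins. The region lists name 8279 gene symbols in all. Of the 10 genes, 7 were named in at least 1 list, all 7 of them for N-Myc, against 38.1% of 19222 autosomal coding genes. CCND2, CCNE1 and CDK2 were named in none.

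The ChIP-Seq data came from CHP-134 cells, a human MYCN-amplified neuroblastoma cell line with gain of the distal long arm of chromosome 17. There were 3 replicates with an anti-N-Myc antibody, from cells cross-linked with formaldehyde, and 3 with an anti-JMJD6 antibody, from cells cross-linked with DSG (disuccinimidyl glutarate) and then formaldehyde. Antibody and cross-linking therefore cannot be told apart, and 1 cell line was used throughout. The lists give only positions, of peaks called in all 3 replicates or of regions that, per the study, overlapped such peaks. Some of the listed regions nonetheless held no common peak. The study states a minimum number of reads per library, but the reads behind each peak are not in the lists and no spread between replicates can be given. As a check of the cell type, the adrenergic neuroblastoma transcription factors HAND2 and GATA3 were both named for a super-enhancer bound by N-Myc. Of 4 mesenchymal regulators, PRRX1, FOSL1, FOSL2 and NOTCH2, 0 were named for such a super-enhancer, against 1.36% of coding genes. In any N-Myc list 1 of the 4 was named, FOSL2 for its promoter, a share not far from the 38.1% of coding genes, so this count does not separate the cell types. Coordinates are 1-based on GRCh37.

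D-type cyclins bind CDK4 and CDK6, and E-type cyclins bind CDK2. These kinases phosphorylate the retinoblastoma protein, which releases E2F transcription factors and lets a cell enter S phase. The inhibitors p21, encoded by CDKN1A, and p27, encoded by CDKN1B, hold the cyclin E and CDK2 complex in check. Myc proteins bind DNA as dimers with MAX at the E-box, with the canonical sequence CACGTG, and cell cycle genes are among the best known Myc targets. JMJD6 belongs to the jumonji family of oxygenases and has been linked to arginine demethylation, lysyl hydroxylation and transcription.

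The sequences below are shown because they hold the canonical E-boxes under the N-Myc peaks at the promoters of CCND1 and CDK4, or the interval between the N-Myc peak and the JMJD6 peak of CCND1. All are reference sequence (GRCh37) read 5′ to 3′ along the named strand. Capitals mark the E-box, except in the second sequence, where they mark the 107 bases that lie inside the JMJD6 peak.
CCND1, N-Myc peak, chr11:69455305-69455430, plus strand: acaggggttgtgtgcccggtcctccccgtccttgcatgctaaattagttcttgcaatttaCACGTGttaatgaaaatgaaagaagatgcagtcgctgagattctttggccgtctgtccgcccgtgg
CCND1, end of N-Myc peak to annotated start site, chr11:69455722-69455923, plus strand: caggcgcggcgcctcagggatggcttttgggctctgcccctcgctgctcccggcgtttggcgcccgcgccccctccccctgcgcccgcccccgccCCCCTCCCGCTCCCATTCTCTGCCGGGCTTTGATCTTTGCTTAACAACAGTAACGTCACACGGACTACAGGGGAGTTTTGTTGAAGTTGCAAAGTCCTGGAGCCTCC
CDK4, upstream of the start site, chr12:58146231-58146386, minus strand: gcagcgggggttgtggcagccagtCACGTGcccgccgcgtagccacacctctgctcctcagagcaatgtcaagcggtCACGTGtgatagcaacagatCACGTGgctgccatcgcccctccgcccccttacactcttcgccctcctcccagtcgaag
CDK4, just after the start site, chr12:58146177-58146206, minus strand: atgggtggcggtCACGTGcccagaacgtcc
CDK4, farther into the gene, chr12:58145693-58145722, minus strand: attgcagggcctCACGTGgctggaggggtt

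N-Myc was bound to the promoters of 4 of the 10 genes, CCND1, CCNE2, CDK4 and CDK6, where a promoter is the 1 kb on each side of a RefSeq start site. In the same list 18.3% of autosomal coding genes were named. At typical enhancers, which the authors assigned to up to 2 nearest genes, N-Myc was bound to regions named for 6 of the 10, CCND1, CCND3, CCNE2, CDK4, CDK6 and CDKN1A, against 32.7% of coding genes. Super-enhancers bound by N-Myc were named for CDK6 and CDKN1B, against 1.36% of coding genes. JMJD6 was bound to the promoter of CCND1 (0.655% of coding genes were named) and to 1 typical enhancer, also of CCND1 (0.942%), and no super-enhancer bound by JMJD6 was named for any of the 10 (0.078%). Across typical enhancers and super-enhancers, 7 of the 10 were named for N-Myc, against 33.3% of coding genes, and 1 for JMJD6, against 1.01%. In any JMJD6 list, 1 of the 10 was named, against 1.33%. Both CCND1 regions were also in the lists of regions bound by both proteins, which named 0.312% of coding genes for promoters and 0.65% for typical enhancers. None of the 10 was named for a super-enhancer bound by both (0.0572%). The members were not drawn at random, so these shares are given side by side without a test.

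**Figure D1:**
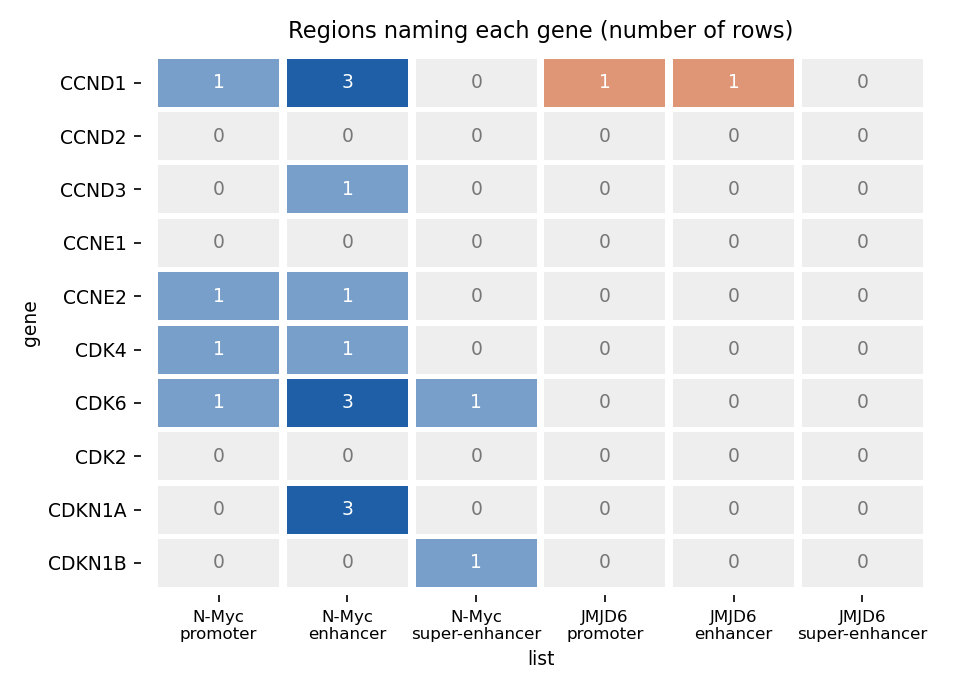
Number of N-Myc-bound and JMJD6-bound regions (columns, by list) naming each of the 10 genes (rows). CDK6 has regions in all 3 N-Myc lists, CCND1 has the only JMJD6 regions, and CCND2, CCNE1 and CDK2 have 0 throughout.

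The 18 N-Myc rows naming these genes held 16 common N-Myc peaks, with the promoter row of CCNE2 holding none of them, and the 2 JMJD6 rows held 1 JMJD6 peak. Typical enhancers and promoters were not separate evidence: the 3 N-Myc peaks in the promoter rows of CCND1, CDK4 and CDK6 also lay in a typical enhancer named for the same gene. Another 5 peaks lay over the listed promoter of a different gene, and 8 lay over no listed promoter. Across the series, 49.2% of the 5800 N-Myc peaks in listed enhancers and super-enhancers lay over a listed N-Myc promoter. None of the 16 peaks was in the list of peaks shared with JMJD6. That list held 241 peaks in all, against 10172 N-Myc peaks, so their absence from it says little about these genes.

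CCND1 encodes cyclin D1, a partner of CDK4 and CDK6, and lies on chromosome 11 (69455924 to 69469242, plus strand). Its N-Myc peak ran from 69455198 to 69455721 and was 524 bp wide, wider than 69.4% of all N-Myc peaks. It lay upstream of the gene, at positions -674 to -151 from the start site at the centre of the listed promoter (69455872). It held 1 canonical E-box at -507 to -502, printed above.

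The JMJD6 peak of CCND1 lay downstream of the N-Myc peak and covered the start site. It ran from 69455817 to 69455998, or -55 to 126, reaching into the annotated 5′ untranslated region, and was 182 bp wide, wider than 2.32% of the 561 JMJD6 peaks. The narrowest JMJD6 peak was 126 bp. The CCND1 peak held no canonical E-box. Of the 177 promoter rows listed for JMJD6, 112 (63.3%) had their start site under a JMJD6 peak.

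A gap of 95 bp separated the N-Myc peak from the JMJD6 peak, so the promoter was listed as bound by both although its peaks did not overlap. Of the 84 co-bound promoters, 76 had overlapping peaks and 4 had separate peaks, with gaps of 95 to 759 bp, of which that of CCND1 was the smallest. The other 4 lacked a common N-Myc peak. A second JMJD6 peak, 237 bp wide, lay farther upstream at 69453807 to 69454043 (-2065 to -1829). It was intergenic and in no listed region. The stretch between the N-Myc peak and the annotated start site held 1 copy of TGACGT, the core of a cAMP response element, on the minus strand at -3 to 2. It thus lay inside the JMJD6 peak, and 7.73% of 18971 windows of the same length upstream of coding start sites held that motif on either strand.

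Both proteins were listed at the typical enhancer that contains this promoter (69454137 to 69459173), and its peaks were those already described. N-Myc alone was bound to another 2 typical enhancers named for CCND1. One, 220 kb upstream at 69235456 to 69237107, held an intergenic peak of 362 bp with no E-box. The other, 33.9 kb downstream at 69489294 to 69490130, lay at the start of ORAOV1 (now LTO1), its nearer gene, whose promoter was also listed as bound by N-Myc. The peak there was 417 bp wide, overlapped coding and untranslated sequence of that gene and held 1 canonical E-box, chr11:69489741-69489770, plus strand: agagcagctgggCACGTGccccgccggagc

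The other D-type cyclins had no N-Myc peak at their own promoters. CCND3 (chromosome 6, 41902672 to 42018095, minus strand) encodes cyclin D3. It was named for 1 typical enhancer, 41888075 to 41890609, whose only peak (41888776 to 41889446, 671 bp) lay over the listed promoters of BYSL and MED20 and 20.1 kb downstream of the canonical CCND3 start site. BYSL, a ribosome biogenesis factor, was the nearer gene on that row. The peak held 1 canonical E-box in the BYSL untranslated region, chr6:41889253-41889282, plus strand: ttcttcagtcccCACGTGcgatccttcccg

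CCND2 (chromosome 12, 4378937 to 4414519, plus strand) encodes cyclin D2. Its nearest N-Myc peak was 561 kb upstream, in an intron of CRACR2A, and its nearest JMJD6 peak 2490 kb away. Within 1 kb of their canonical start sites CCND2 and CCND3 held no canonical E-box.

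The E-type cyclins differed from each other in listing. CCNE2 (chromosome 8, 95891998 to 95908906, minus strand) encodes cyclin E2, and N-Myc was listed at its promoter (95906482 to 95908482) and at a typical enhancer over it (95907098 to 95909837). The only common N-Myc peak there, 95909014 to 95909468 and 455 bp wide, lay in that enhancer at -1986 to -1532 and outside the promoter row, in an intron of the neighbouring gene NDUFAF6. The upstream-most annotated CCNE2 start site is 95908906, close to that peak, and by annotated start sites CCNE2 also counted as bound within 1 kb. Of the 5114 N-Myc promoter rows, 131 (2.56%) held no common N-Myc peak. The peak held no canonical E-box, and the 1 canonical E-box within 1 kb of the CCNE2 start site, at -985 to -980, was under no peak. CCNE1 (chromosome 19, 30302898 to 30315219, plus strand) encodes cyclin E1. Its nearest N-Myc peak was intergenic and 117 kb upstream, and its nearest JMJD6 peak was 2564 kb away. No canonical E-box lay within 1 kb of its start site.

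**Figure D2:**
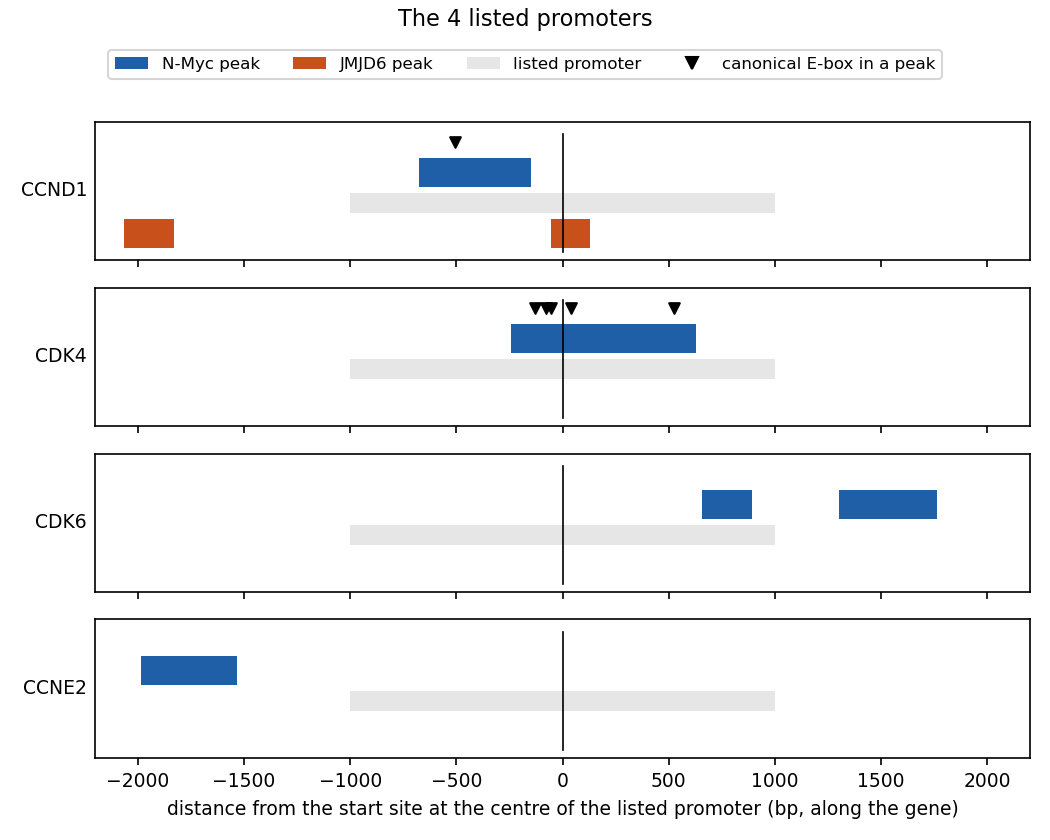
N-Myc peaks, JMJD6 peaks and the canonical E-boxes under a peak at the 4 promoters listed for N-Myc. Distance is in bp from the start site at the centre of the listed promoter (grey bar, 1 kb on each side). The CCNE2 E-box, under no peak, is not drawn. The N-Myc peak and the JMJD6 peak in the CCND1 promoter are separated by 95 bp, and another JMJD6 peak lies farther upstream. The CDK4 peak covers the start site and 5 E-boxes, and the CCNE2 peak lies outside the listed promoter.

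CDK4, a kinase partner of the D-type cyclins, had the N-Myc peak with the most canonical E-boxes among these genes. The gene lies on chromosome 12 (58141510 to 58149796, minus strand). Its single N-Myc peak, 58145601 to 58146474, was 874 bp wide, wider than 94.5% of all N-Myc peaks. It covered the start site, from -244 to 629, and lay both in the promoter row and in a typical enhancer of 8.46 kb (58138572 to 58147034) that was also named for TSPAN31.

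The CDK4 peak held 5 canonical E-boxes. Upstream of the start site they began at -132, -79 and -59, where a longer annotated transcript has an intron. The other 2, at 36 to 41 and 520 to 525, fell in annotated untranslated sequence. Of 10172 N-Myc peaks, 6 held at least 5 canonical E-boxes, or 0.059%, and 4 of those 6 lay over a listed promoter. Those promoters, named after their values were seen, were those of CDK4, PPRC1, CIART and the long non-coding RNA LINC01237. Of the 558 N-Myc peaks at least as wide as that of CDK4, 251 (45%) held a canonical E-box and 4 held 5 or more. The CDK4 peak also held 6 copies of the GC box GGGCGG (either strand), more than 99.8% of N-Myc peaks. The nearest JMJD6 peak was 4025 kb away.

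CDK6, the other kinase of the D-type cyclins, had the most N-Myc peaks. It is a gene of 232 kb on chromosome 7 (92234235 to 92465887, minus strand), named for 1 promoter, 3 typical enhancers and 1 super-enhancer bound by N-Myc. All 3 N-Myc lists named 0.364% of coding genes. It had 4 enhancer or super-enhancer rows, and 203 coding genes (1.06%) had at least as many.

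The CDK6 gene body held 6 N-Myc peaks. At least as many were found in 52 coding genes (0.271%), of which 44 were among the 1162 coding genes at least as long as CDK6. The peak in the promoter row, 92462371 to 92462606, was 236 bp wide, wider than 2.04% of all N-Myc peaks. It lay at 658 to 893 in coding sequence, not over the start site. A wider peak of 461 bp followed in an intron at 1301 to 1761. Farther into the gene, the super-enhancer (92383206 to 92443601, 60.4 kb) held intronic peaks of 643 and 404 bp, 78.3 and 65.0 kb from the start site. A typical enhancer 198 kb into the gene held an intronic peak of 787 bp, and here RBM48 was the nearer gene on the row. The third typical enhancer, 92218546 to 92219905, was beyond the end of CDK6, and its peak lay over the promoter of FAM133B.

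No N-Myc peak in the CDK6 regions held a canonical E-box. The promoter peak held 1 non-canonical E-box, CACGCG, which was present in 15.9% of all N-Myc peaks. It is shown on the CDK6 strand, where it reads as its reverse complement in capitals, chr7:92462491-92462520: gtggcgttgaagCGCGTGcgggtgcagacc
The single canonical E-box under an N-Myc peak in the CDK6 gene was 142 kb into the gene, in an intronic peak of 402 bp (92320768 to 92321169) that was in no listed region, chr7:92320983-92321012, minus strand: gtgaaatgaaagCACGTGtaatctatatag

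CDK2, the kinase of the E-type cyclins, was named in no list. The gene lies on chromosome 12 (56360565 to 56366573, plus strand). Its nearest N-Myc peak was 54.1 kb downstream, over the listed promoter of IKZF4, and its nearest JMJD6 peak 2239 kb away. A canonical E-box lay at 292 to 297 from the CDK2 start site without a peak over it, chr12:56360894-56360923, plus strand: aatccgcctggaCACGTGagtggcctctgt

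Over all coding genes, 29.3% of 18971 had a canonical E-box within 1 kb of the canonical start site, 47.1% of the 3520 named in the N-Myc promoter list and 25.2% of the 15451 not named. Among the 10 genes, measured from the centre of the listed promoter where there was one, it was CCND1, CCNE2, CDK2 and CDK4. Those of CCND1 and CDK4 were under an N-Myc peak, and those of CCNE2 and CDK2 were not. The CCNE2 E-box, at -985 to -980, lay close to the 1 kb limit.

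**Figure D3:**
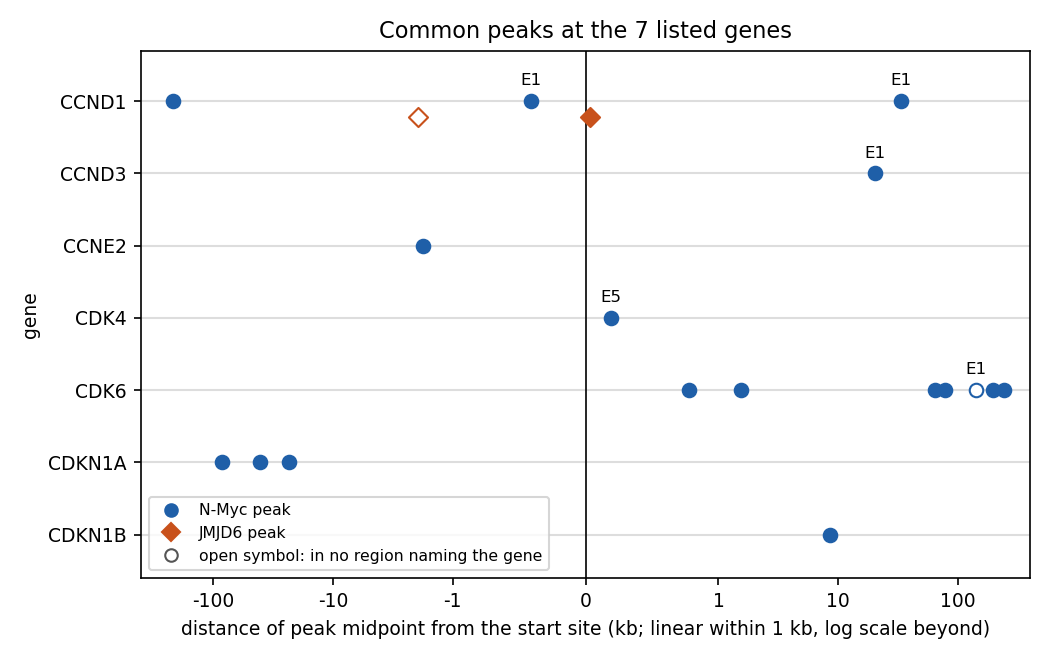
Distance of each common peak's midpoint from the start site, in kb (linear within 1 kb and on a log scale beyond), for the 7 genes named in a list. Circles are N-Myc peaks and diamonds JMJD6 peaks (open if in no region naming the gene), E with a number gives the canonical E-boxes in a peak, and the peaks of both inhibitors lie at least 8.37 kb from their start sites.

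At the inhibitors N-Myc was bound away from the promoters. CDKN1A (chromosome 6, 36644237 to 36655114, plus strand), which encodes p21, was named for 3 typical enhancers with 1 peak each, all 3 peaks being upstream. The nearest peak, 36622874 to 36623499 and 626 bp wide, was intergenic and 23 kb upstream. Its enhancer was 25.2 kb long (36622370 to 36647612) and did cover the CDKN1A start site, but held its only common peak near its far end. The next peak, 36605144 to 36605833 and 690 bp wide, was intergenic and 40.7 kb upstream. The third, 36561989 to 36562554 and 566 bp wide, lay 83.9 kb upstream over the listed promoter of SRSF3, a splicing factor gene, which was the nearer gene on that row. None of the 3 peaks held a canonical E-box. The nearest peak held 3 copies of the non-canonical CATGTG, a motif present in 42.1% of all N-Myc peaks.

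CDKN1B (chromosome 12, 12838432 to 12875303, plus strand), which encodes p27, was named for a super-enhancer of 13.3 kb (12866842 to 12880091) that covered its canonical start site. The single N-Myc peak there, 12878668 to 12878892, was 8.37 kb downstream of the CDKN1B start site, in the untranslated region of APOLD1 and over the listed APOLD1 promoter. It was 225 bp wide, and 125 of the 10172 N-Myc peaks were no wider. It held no canonical E-box. The nearest JMJD6 peaks of CDKN1A and CDKN1B were 3566 and 1540 kb away.

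**Figure D4:**
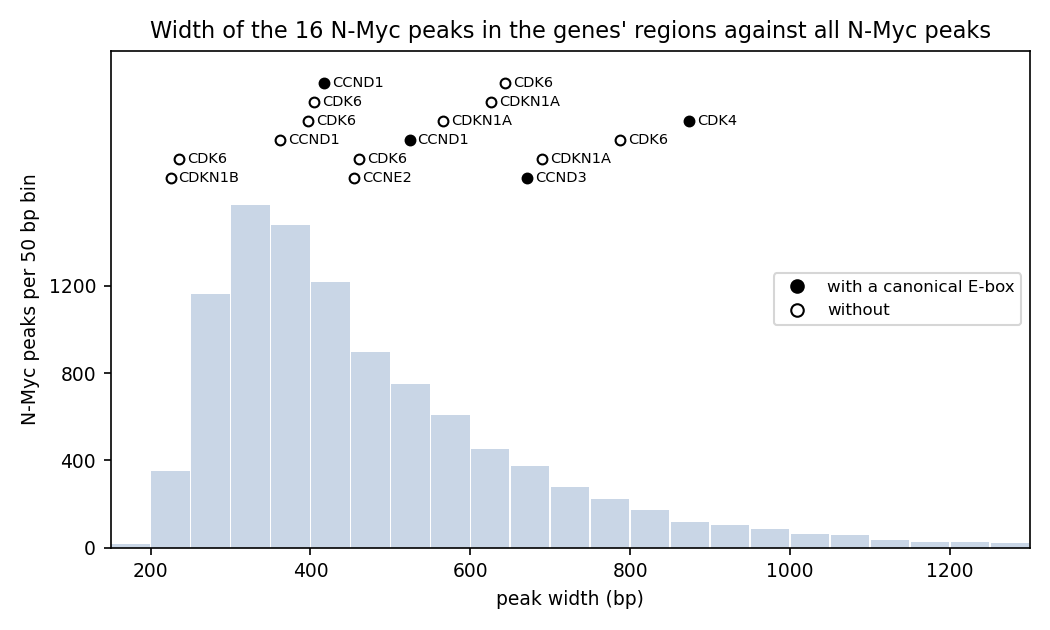
Widths in bp of the 16 N-Myc peaks in regions naming these genes (points, labelled by gene, at arbitrary heights above the bars) and of all N-Myc peaks (bars, peaks per 50 bp bin, the axis ending at 1300 bp). The CDK4 peak, at 874 bp, is the widest of the 16, and those of CDKN1B and the CDK6 promoter, at 225 and 236 bp, are the narrowest.

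The 16 N-Myc peaks had a median width of 492.5 bp, against 418 bp for all N-Myc peaks, which put that median above 64.7% of them. Canonical E-boxes were held by 4 of the 16 peaks (CCND1 promoter, LTO1 promoter, BYSL and MED20 promoters, and CDK4), or 25%, against 33.4% of all N-Myc peaks and 5.01% of 9998 width-matched stretches lying 5 kb away on the downstream side. By position, 2 of the 3 peaks over a member's own promoter held one, 2 of the 5 over another gene's promoter, and 0 of the 8 over no listed promoter. Among all N-Myc peaks the shares were 36.9% over listed promoters and 31.6% elsewhere.

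The pattern of listing over promoter, typical enhancer and super-enhancer for each protein was shared with other genes to very different extents. That of CCND1 (promoter and typical enhancer for both proteins, no super-enhancer) was found in 37 autosomal coding genes including CCND1 itself, or 0.192%. That of CDK6 (all 3 N-Myc classes, no JMJD6) was found in 65, or 0.338%, and that of CDKN1B (N-Myc super-enhancer alone) in 79, or 0.411%. CDK4 and CCNE2 had the same pattern, promoter and typical enhancer for N-Myc, as 2424 genes (12.6%). CCND3 and CDKN1A were among 3550 (18.5%) with an N-Myc typical enhancer alone. CCND2, CCNE1 and CDK2 were among 11830 (61.5%) that were named in no list.

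A wider list of 26 genes held genes of the same pathway and some other kinase and cyclin genes. N-Myc was bound to the promoters of 9 of the 26, against 18.3% of coding genes. It was bound to typical enhancers named for 14, against 32.7%. All 9 genes with a listed promoter were among these 14, so the counts were not separate evidence. Among 5 further inhibitors the promoter of CDKN2D was listed, and CDKN2A and CDKN2C were named in no list. Of 3 pocket proteins, the targets of these kinases, RBL1 was listed at its promoter and RBL2 for the 1 super-enhancer of the 26 genes, and RB1 was not listed. MNAT1 of the CDK-activating kinase and the phosphatase gene CDC25A were listed at their promoters, as were CKS1B and FBXW7 among 8 genes for degradation of cyclins and p27, and CDK5, CDK1 and CCNB1 among 4 other kinase and cyclin genes. These were named after their values were seen. JMJD6 was listed for 0 of the 26 genes in any class, where 1.33% of coding genes were named, so a count of 0 says little about these genes.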

How the data were processed

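ChIP-Seq reads from 6 samples of CHP-134 cells were processed by the authors, per the labels, with BWA, SAMtools, bedtools and MACS2 (version 2.1.1.20160309) on hg19. Peaks were called against input with a q-value maximum of 0.05, and those found in all 3 replicates of an antibody were kept. Promoters were 1 kb on each side of RefSeq start sites. Enhancers and super-enhancers came from H3K27ac peaks with ROSE, stitched at 12.5 kb, and nearest genes, at most 2 a region within 1000 kb, from GREAT. The 12 deposited lists give positions in bp and no count, score or coverage, so the reads behind a peak are unknown and no test between replicates can be given.

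Rows naming a gene were taken by exact symbol, and peaks by an overlap of at least 1 bp. The hg19 lists were checked against GRCh37 and GENCODE version 44 lifted to it: of 4914 N-Myc promoter rows with an annotated symbol, 4310 (87.7%) had an annotated start site within 100 bp of their centre. Of 8279 symbols, 7627 matched GENCODE and 413 more matched through a RefSeq synonym. Distances are from the centre of the listed promoter, or else from the GENCODE canonical start site. Motifs were sought on both strands. Shares of coding genes are over 19222 autosomal genes. Overlap and motif searches were tested on simulated data. Python 3.11.15, numpy 2.4.6, pysam 0.24.0 and matplotlib 3.10.9 were used. By rule all 10 genes were named whatever their values, with genes sharing a region with them. The wider list of 26 genes was to be given by counts unless JMJD6 was listed. Names from it, and of genes under other peaks, were therefore chosen after their values were seen. The genes and lists were chosen with earlier results of these data known. Alternatives covered promoter definition, gene assignment, overlap, peak width and motif. Some cell type marker genes are not reported here.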

Additional observations from a re-analysis of the deposited data

How the results depend on the processing

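The lists hold 1 value for 3 replicates, so no replicate could be left out. No paired analysis was possible because the lists have no column per sample and no result comes from a test. Requiring a common peak of at least the median width of its list left 2 members with an N-Myc promoter (CCND1 and CDK4) and 0 with a JMJD6 promoter. With regions overlapping no listed promoter, 3 members kept an N-Myc enhancer or super-enhancer (CCND1, CDK6 and CDKN1A) and 0 a JMJD6 one. Of the 16 N-Myc peaks, 3 were in promoter rows. By nearest coding start site over all common peaks, 10 N-Myc peaks and 2 JMJD6 peaks belonged to members. These include the intronic CDK6 peak and the farther upstream CCND1 JMJD6 peak that lay in no listed region. The member bound by both proteins became 0 when peaks had to overlap, by 1 bp or by 50% of the narrower peak, since the CCND1 peaks are 95 bp apart. With 4 non-canonical motifs added, 11 of the 16 peaks held an E-box (83.1% of all N-Myc peaks did). With 100 bp on each side of the centre 1 did, that of CCND1. The share of all N-Myc peaks with an E-box in that central window is not given, so this count cannot be compared. The other alternatives moved their result by at most 1.5 times. Requiring a common peak in the promoter row, or at least 1 peak outside other genes' promoters, was added after seeing the data and gave 3 and 5 members for N-Myc.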

Other observations

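Peaks near these genes that were in no region naming them were few. Within 5 kb of the 10 gene bodies there was 1 such N-Myc peak, the intronic CDK6 peak with a canonical E-box, and 1 such JMJD6 peak, the one -2065 to -1829 from the CCND1 start site, which was wider than 9.09% of JMJD6 peaks. Both JMJD6 peaks at CCND1 were thus narrow for their list, and neither overlapped an N-Myc peak. Lack of overlap was common in that list, with 241 shared peaks against 561 JMJD6 peaks in all.

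Of the 14 N-Myc enhancer and super-enhancer rows naming a member, the member was the nearer of the listed genes on 9. The other 5 were those shared with ORAOV1 and BYSL, the SRSF3 row of CDKN1A, and 2 rows of CDK6 for which RBM48 was nearer.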
